A study of Sus scrofa with 24 samples.

Results

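The genes described here encode subunits of the mitochondrial respiratory chain and of ATP synthase that are made from nuclear DNA. They were chosen by name: every probe whose platform symbol belongs to the NDUFA, NDUFB, NDUFC, NDUFS or NDUFV numbered series, to UQCR, to the numbered COX subunits or to ATP5, or is SDHA, SDHB, SDHC or SDHD. This gave 48 genes on 77 probes, of 11906 gene symbols and 43749 probes on the array. Of the 48 genes, 28 fell in complex I, 2 in complex II, 1 in complex III, 4 in complex IV and 13 in complex V. The rule itself used names and no measured value, but the set was chosen with earlier results of these data known. By what is known of the proteins, 3 of the named genes are not subunits of a mature complex: NDUFA4L2 is a relative of NDUFA4, and ATP5S and ATP5SL are linked to complex assembly. NDUFA4 itself is now placed in complex IV but stays in complex I below, where its symbol puts it.

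In the inner mitochondrial membrane, complex I takes electrons from NADH and complex II takes them from succinate. Complex III passes them on to cytochrome c and complex IV hands them to oxygen. Complexes I, III and IV pump protons while they do so, and complex V lets the protons back and makes ATP. A small number of subunits come from mitochondrial DNA and the others from nuclear genes, so the messenger RNAs below report on the nuclear side only. In rodent embryos the supply of energy moves from mostly glycolysis towards oxidative phosphorylation as organs form.

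Embryos were taken at day 30 of gestation from sows in their first parity. Control sows were compared with sows brought into lactational oestrus by intermittent suckling and then mated by either of 2 strategies, named IS21FE and IS21SE in the labels, which do not spell the letters out. The labels give 6 sows in the control and 3 per strategy. From every sow 3 female and 3 male embryos were pooled by sex, so pools of both sexes share sows. Each of the 12 replicates was a treated pool against a control pool of the same sex, on 2 arrays with exchanged dyes, which gave 4 groups of 3 replicates: IS21FE female, IS21FE male, IS21SE female and IS21SE male. A value is the log2 ratio of both channels, with arrays that carried control RNA in Cy5 turned in sign and both arrays of a replicate averaged. The deposited table does not state which channel is the numerator. A positive ratio below is therefore a higher level in treated than in control pools only if all columns run Cy5 over Cy3. If all run Cy3 over Cy5, every sign turns. If columns had already been turned before deposit, the values differ gene by gene, and that reading is given separately near the end.

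Depth has no counterpart in these ratios, and no signal intensity was used, so the number of pools sets the precision. Member probes were measured more completely than others: 63 of 77 (81.8%) had a value on all 24 arrays, against 42.2% of all probes. The array SD ran from 0.620 to 0.890 on female and from 0.937 to 1.33 on male arrays, so sex and array scale cannot be told apart. In 3 female arrays with treated RNA in Cy5 (IS21FE replicates 1 and 3 and IS21SE replicate 2) the ratios were alike, with Spearman's rho across probes from 0.594 to 0.637 against 0.0137 to 0.301 for the other female pairs of that dye. Read as deposited, both arrays of a replicate correlated weakly across probes. Spearman's rho ran from -0.169 (IS21FE male replicate 1) to 0.252 (IS21SE female replicate 3), negative in some replicates and positive in others. If no column had been turned before deposit, a difference between pools would give a negative rho. Ratios give no levels, so tissue markers could not be checked as levels. The RNA came from pools of embryos with many cell types, in which fewer cells of a type and less RNA per cell cannot be told apart.

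After the turn, the averages of the respiratory chain genes lay close to the control in all 4 groups, and no member passed the test in any. In female pools these averages join dye orientations whose member medians had opposite signs. With no array turned, 15 of 48 members were called in IS21FE female pools, where 5.89% of all genes were called, as given near the end. The median log2 ratio of the members after the turn was 0.021 in IS21FE female, -0.025 in IS21FE male, -0.025 in IS21SE female and 0.048 in IS21SE male pools. The medians of all genes tested were 0.032, -0.013, 0.021 and -0.0069 in the same order. Member means reached from -0.19 (ATP5E) to 0.32 (SDHB) in IS21FE female, from -0.38 (NDUFA6) to 0.19 (COX6C) in IS21FE male, from -0.16 (NDUFS6) to 0.19 (NDUFV1) in IS21SE female, and from -0.24 (NDUFA9) to 0.35 (NDUFB8) in IS21SE male pools. Positive and negative means numbered 27 and 21 in IS21FE female, 17 and 31 in IS21FE male, 20 and 28 in IS21SE female, and 28 and 20 in IS21SE male pools. The share of negative means was 43.8%, 64.6%, 58.3% and 41.7%, beside 44.2%, 53.0%, 45.7% and 51.2% of all genes.

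With limma and Benjamini-Hochberg adjustment over all genes, 0 of 48 members had an adjusted p under 0.05 in each of the 4 groups, where 0.0% of all genes were called. At an unadjusted p under 0.05, limma counted 2 members in IS21FE female (8.51% of all genes), 1 in IS21FE male (6.74%), 0 in IS21SE female (5.35%) and 2 in IS21SE male pools (11.8%). As shares of 48 genes these counts are no larger than the background. The lowest adjusted p of a member was 0.477, 0.732, 0.984 and 0.238 in the same order. P-values here measure the spread between these pools.

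The members could be measured more tightly than most genes. The median standard error was 0.110, 0.109, 0.110 and 0.110 for the members and 0.186, 0.185, 0.184 and 0.189 for all genes in the 4 groups. The limma fit shared an estimate of each gene's spread over the 4 groups. These standard errors and the intervals below are therefore alike between groups by design and do not measure the precision of each group alone. The median SD between replicates was 0.150, 0.137, 0.110 and 0.156 for the members, beside 0.211, 0.272, 0.234 and 0.229 for all genes. In each of the 4 groups the 95% confidence interval of all 48 members lay inside a 2-fold difference in either direction, as did 75.8%, 75.2%, 77.1% and 72.9% of all genes. Inside a 1.5-fold difference lay 47, 45, 47 and 45 members, against 47.4%, 51.5%, 50.4% and 45.2% of all genes. The interval that passed this smaller bound in every group was that of NDUFA4L2, for example -0.70 to 0.82 in IS21FE female pools. The others that passed it were NDUFA6 and ATP5B in IS21FE male and ATP5SL and NDUFA9 in IS21SE male pools.

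**Figure D1:**
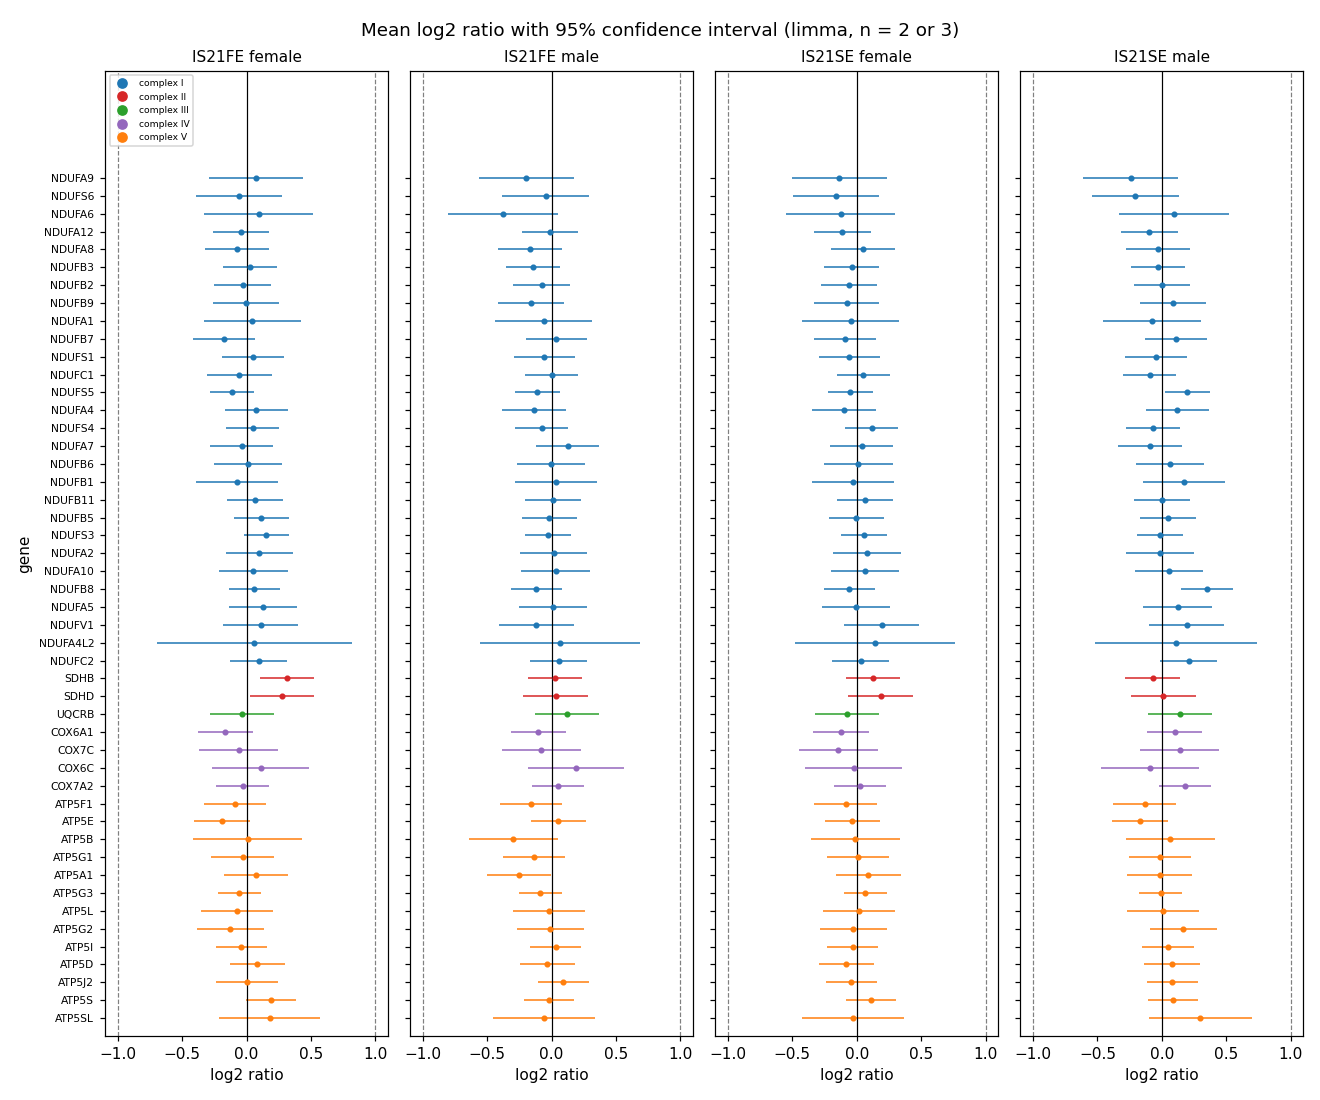
Mean log2 ratio of each of the 48 members (points, coloured by complex) with its 95% confidence interval from limma (lines) in the 4 groups, n = 2 or 3 replicates. The dashed lines mark a 2-fold difference, and all 48 intervals stay between them in each group.

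Complex I is the entry point for NADH, and its 28 genes carry the bulk of the set. Their median was 0.050 in IS21FE female, -0.038 in IS21FE male, -0.017 in IS21SE female and 0.026 in IS21SE male pools, with 18, 9, 12 and 15 positive means of 28. The member with the smallest p of all was NDUFB8, an accessory subunit of the membrane arm. In IS21SE male pools NDUFB8 had log2 ratios of 0.26, 0.26 and 0.54 in replicates 1 to 3. All 3 were positive, and the dye orientations taken alone gave means of 0.35 and 0.36. The mean was 0.35 ± 0.16 (SD, n = 3), with a 95% interval of 0.15 to 0.55 and a limma p of 0.00283 that became 0.238 after adjustment. In IS21FE male pools the 3 replicates of NDUFB8 were all negative, at -0.070, -0.19 and -0.099, and did not overlap with those of IS21SE male pools, a split across 0 that 3.45% of all genes showed. With no array turned, its means were -0.066 in IS21FE male and -0.0052 in IS21SE male pools.

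NDUFS5, an accessory subunit on the intermembrane space side, had means of opposite sign in the male pools of the strategies and negative means in both female groups. Its log2 ratios were 0.24, 0.21 and 0.15 in IS21SE male pools, with a mean of 0.20 and a limma adjusted p of 0.370. They were -0.12, -0.100 and -0.11 in IS21FE female pools and -0.085, -0.19 and -0.060 in IS21FE male pools. All 6 IS21FE replicates were negative, and the IS21SE female replicates lay on both sides of 0 at 0.017, -0.16 and -0.0067. The dye orientations disagreed for NDUFS5 in IS21FE female pools, with single arrays of 0.015, 0.23 and 0.13 with treated RNA in Cy5 and of -0.26, -0.43 and -0.35 with control RNA in Cy5 after the turn. In IS21FE male pools the single arrays of NDUFS5 were 0.067, -0.22 and 0.11 with treated RNA in Cy5. With control RNA in Cy5 they were -0.24, -0.15 and -0.23 there after the turn. With treated RNA in Cy5 alone, the NDUFS5 mean for IS21FE over both sexes was 0.055, of the opposite sign. With no array turned, its means were 0.0955 in IS21FE male and 0.11 in IS21SE male pools. Over both sexes the difference of IS21SE minus IS21FE was 0.19 for NDUFS5 (limma adjusted p = 0.878) and 0.17 for NDUFB8 (adjusted p = 0.878).

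The core subunits NDUFV1, NDUFS1 and NDUFS3 showed no common direction. NDUFV1, which binds NADH, had means of 0.11 in IS21FE female, -0.12 in IS21FE male, 0.19 in IS21SE female and 0.19 in IS21SE male pools. The IS21SE female mean of NDUFV1 rested on a single high replicate, with values of 0.52, -0.066 and 0.13. NDUFS1, the large iron-sulfur subunit, stayed between -0.057 and 0.051 in all 4 groups. NDUFS3, a core subunit of the matrix arm, was positive in 3 of 3 IS21FE female replicates, at 0.21, 0.072 and 0.18 (mean 0.15, limma adjusted p = 0.621), and its other group means ran from -0.030 to 0.058.

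Among the accessory subunits of complex I, NDUFA6 had the lowest mean, in IS21FE male pools. Its replicates there were 0.080, -0.44 and -0.77, with a mean of -0.38 (limma adjusted p = 0.802), and its 3 probes had means from -0.86 to -0.11. In IS21SE male pools the replicates of NDUFA6 spread from -0.25 to 0.69. NDUFA9, a subunit near the quinone site, had the lowest mean over the 4 groups in complex I, -0.13, and NDUFC2 the highest, 0.098. NDUFA8 and NDUFB3 were negative in 3 of 3 IS21FE male replicates, with means of -0.17 and -0.15 and adjusted p from limma of 0.862 and 0.860. NDUFA10, NDUFA4L2 and NDUFC2 had positive means in all 4 groups, and NDUFS6 and NDUFA12 negative ones. None of these 5 had the same sign in all its replicates. NDUFC2 was positive on every array with control RNA in Cy5 after the turn, from 0.057 to 0.70. With treated RNA in Cy5 it was mostly negative, from -0.35 to 0.12. With no array turned its means were -0.147, -0.307, -0.145 and -0.308 in IS21FE female, IS21FE male, IS21SE female and IS21SE male pools. The share of all genes with the same sign in all 4 groups was not counted. NDUFS4, an accessory subunit of the matrix arm, was positive in all 3 IS21SE female replicates, with a mean of 0.12, and negative in all 3 IS21FE male replicates, with a mean of -0.079. NDUFS4 had a limma adjusted p of 0.996 in IS21SE female pools.

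**Figure D2:**
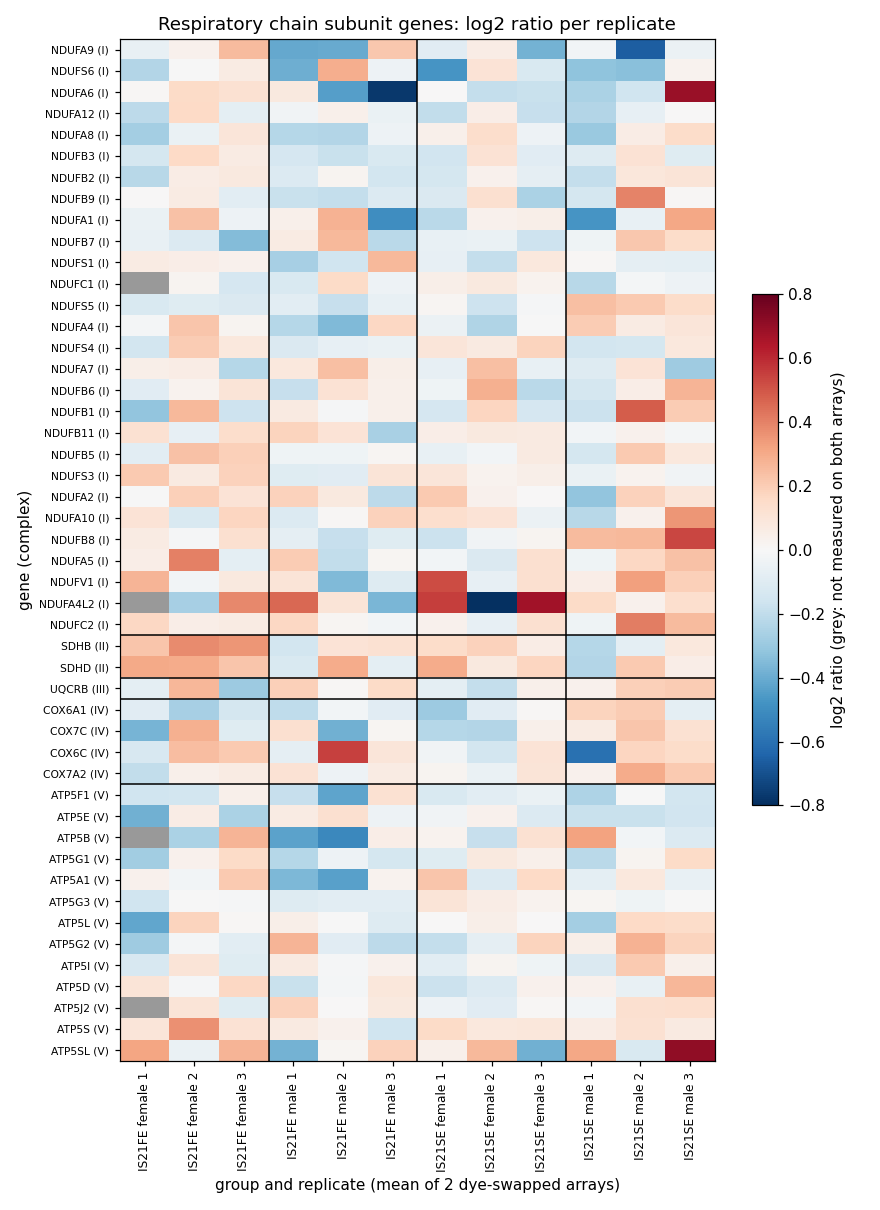
Log2 ratio of each member (one line per gene, with its complex in brackets) in each of the 12 replicates. Red is positive, blue negative and grey not measured on both arrays of a replicate. The SDHB and SDHD lines are red in all 6 female replicates, and IS21SE male replicate 1 has more blue cells than replicates 2 and 3.

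Complex II, succinate dehydrogenase, links the citric acid cycle to the chain and holds no subunit from mitochondrial DNA. Both genes measured, SDHB (the iron-sulfur subunit) and SDHD (a membrane anchor), had positive ratios in all 6 female replicates as means of both dye orientations, though not on every single array. SDHB had log2 ratios of 0.22, 0.38 and 0.35 in IS21FE female and of 0.15, 0.18 and 0.059 in IS21SE female pools. In male pools SDHB lay on both sides of 0, at -0.15, 0.11 and 0.12 for IS21FE and at -0.23, -0.079 and 0.086 for IS21SE. The mean of SDHB in IS21FE female pools was 0.32 ± 0.084 (SD, n = 3), with a 95% interval of 0.11 to 0.53, a limma p of 0.00732 and an adjusted p of 0.477.

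SDHD had log2 ratios of 0.31, 0.30 and 0.22 in IS21FE female and of 0.30, 0.080 and 0.17 in IS21SE female pools. Its male ratios were -0.12, 0.30 and -0.080 for IS21FE and -0.23, 0.21 and 0.055 for IS21SE, so female and male values overlapped. The means of SDHD in female pools were 0.27 ± 0.046 (SD, n = 3; limma adjusted p = 0.555) for IS21FE and 0.19 (adjusted p = 0.984) for IS21SE. Male minus female differences of SDHB were -0.29 under IS21FE (adjusted p = 0.789), and those of the 2 complex II genes had a median of -0.26 under IS21FE and of -0.19 under IS21SE.

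The dye orientations differed for complex II. In IS21FE female pools SDHB had single-array ratios of 0.064, 0.11 and 0.11 with treated RNA in Cy5 and, after the turn, of 0.38, 0.64 and 0.59 with control RNA in Cy5. All 6 arrays were positive, and every ratio with control RNA in Cy5 was larger than every ratio with treated RNA in Cy5. In IS21SE female pools the ratios with treated RNA in Cy5 lay on both sides of 0, at -0.015, 0.30 and -0.072 for SDHB and at 0.094, 0.018 and -0.14 for SDHD. That orientation alone gave SDHD a mean of -0.0090 there, against 0.38 from the other. In IS21FE female pools the mean from each orientation alone was 0.095 and 0.54 for SDHB, and 0.060 and 0.49 for SDHD. Without the 3 arrays that were alike, the SDHB mean was 0.37 (limma adjusted p = 0.934) and the SDHD mean was 0.36. The part of the dye orientation in these ratios was not tested.

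**Figure D3:**
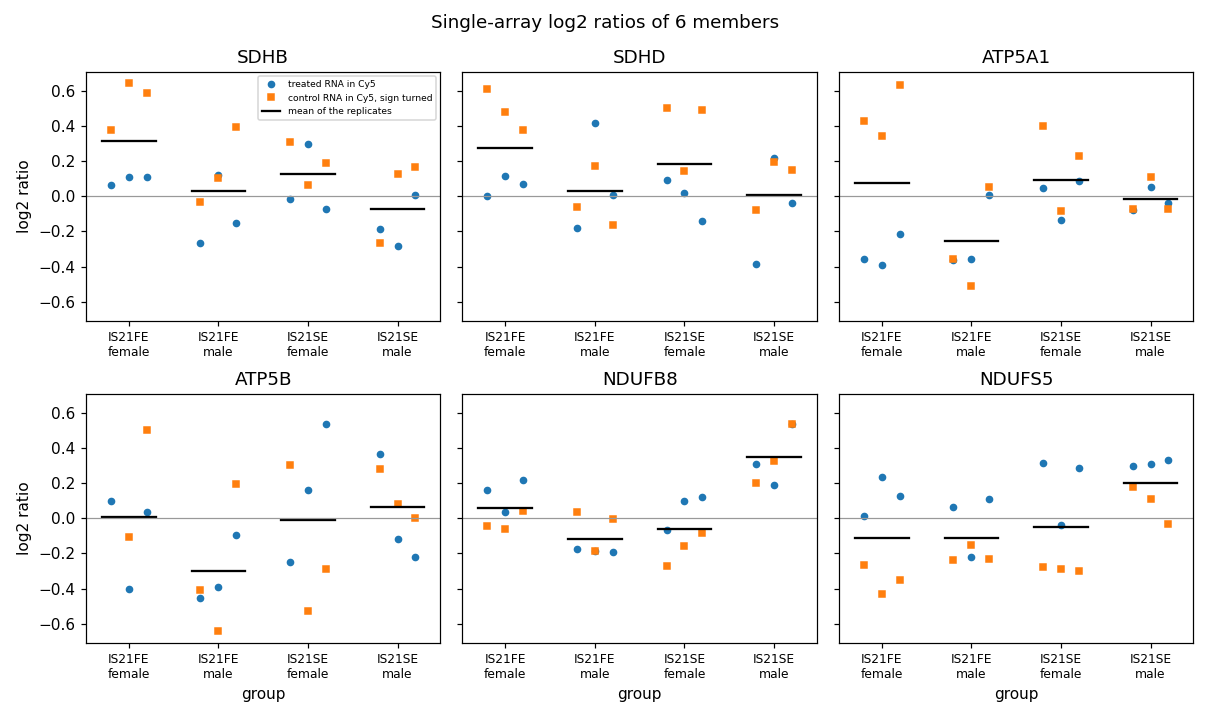
Single-array log2 ratios of SDHB, SDHD, ATP5A1, ATP5B, NDUFB8 and NDUFS5 in the 4 groups, with treated RNA in Cy5 (circles) and control RNA in Cy5 after the turn (squares), and the mean of the replicates (line). The 6 arrays of NDUFB8 in IS21SE male pools lie above 0 in both orientations, while the circles and squares of SDHB in IS21FE female pools are apart.

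Complex III was represented by UQCRB, its small ubiquinone-binding subunit. UQCRB was positive in all 3 replicates of IS21FE male (0.19, 0.010 and 0.16) and of IS21SE male pools (0.035, 0.19 and 0.20). In female pools it lay on both sides of 0, from -0.29 to 0.26. Its means were -0.037 in IS21FE female, 0.12 in IS21FE male, -0.076 in IS21SE female and 0.14 in IS21SE male pools, and its lowest adjusted p from limma was 0.647.

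Complex IV was represented by COX6A1, COX6C, COX7A2 and COX7C, small subunits around the catalytic core. COX6A1, the isoform of most tissues outside striated muscle, was negative in 8 of 9 replicates outside IS21SE male pools. On single arrays of these replicates it was always negative with control RNA in Cy5 after the turn, from -0.40 to -0.057. With treated RNA in Cy5 it lay on both sides of 0, from -0.30 to 0.18. With no array turned, COX6A1 had positive means of 0.10, 0.12, 0.16 and 0.18 in IS21FE female, IS21FE male, IS21SE female and IS21SE male pools. After the turn its group means were -0.17 in IS21FE female, -0.11 in IS21FE male, -0.12 in IS21SE female and 0.10 in IS21SE male pools. Its mean over the 4 groups was the lowest of complex IV at -0.073. COX7A2 had the highest at 0.055. In IS21SE male pools COX7A2 was positive in 3 of 3 replicates, at 0.032, 0.30 and 0.21, with a mean of 0.18 (limma adjusted p = 0.481), and COX7C was positive in 3 of 3, at 0.067, 0.22 and 0.12. COX6C reached -0.60 in replicate 1 of that group against 0.17 and 0.14 in replicates 2 and 3. Its 2 probes had means of -0.63 and 0.19 there, so no single value stands for the gene.

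Complex V makes ATP in a catalytic head, F1, on a membrane rotor. The alpha and beta subunits of the head, ATP5A1 and ATP5B, had the lowest IS21FE male means of the complex. ATP5A1 had log2 ratios of -0.36, -0.43 and 0.031 in those pools and ATP5B had -0.43, -0.52 and 0.050. Replicates 1 and 2 were low for both genes and replicate 3 was above 0. The means were -0.25 ± 0.25 (SD, n = 3; limma adjusted p = 0.732) for ATP5A1 and -0.30 ± 0.31 (SD, n = 3; adjusted p = 0.807) for ATP5B. Leaving out 1 replicate moved the ATP5A1 mean between -0.40 and -0.16 and the ATP5B mean between -0.47 and -0.19. The same pools split alike for NDUFA9 (-0.41, -0.40 and 0.21) and NDUFS1 (-0.26, -0.16 and 0.26) of complex I, which were picked after their values were seen. Members as a whole did not split so, with medians of -0.079, -0.015 and -0.038 in IS21FE male replicates 1 to 3. NDUFA6 went the other way and was the lowest member in replicate 3 at -0.77.

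Other parts of the ATP synthase gave smaller ratios. ATP5F1, the b subunit of the peripheral stalk, had negative means in all 4 groups, from -0.16 to -0.087, was negative in 10 of 12 replicates and had the lowest mean of the complex at -0.12. ATP5E, the epsilon subunit of the central stalk, had replicates of -0.18, -0.18 and -0.15 in IS21SE male pools (mean -0.17 ± 0.016, SD, n = 3; limma adjusted p = 0.533). Its 2 probes had means of -0.38 and 0.043 in those pools, on opposite sides of 0, so this narrow spread is that of an average of unlike probes. In IS21FE female pools ATP5E spread from -0.39 to 0.061. The 3 genes ATP5G1, ATP5G2 and ATP5G3 encode the same mature c subunit of the rotor ring. Their means were -0.031, -0.13 and -0.057 in IS21FE female, -0.14, -0.011 and -0.089 in IS21FE male, 0.0072, -0.027 and 0.066 in IS21SE female, and -0.014, 0.17 and -0.010 in IS21SE male pools. The means of these 3 genes shared a sign in the IS21FE groups and not in the IS21SE groups, though several means were close to 0. In IS21FE female pools the probes of ATP5G1 had means from -0.34 to 0.14. With no array turned the 3 genes shared no sign in the IS21FE groups. Their means in that order were then 0.061, 0.29 and -0.066 in IS21FE female and -0.059, 0.082 and 0.058 in IS21FE male pools.

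ATP5S was positive in all 3 replicates of 3 groups, with means of 0.19 in IS21FE female, 0.11 in IS21SE female and 0.086 in IS21SE male pools, and -0.017 in IS21FE male pools. Its adjusted p from limma in IS21FE female pools was 0.585. These means join orientations of opposite sign. In IS21FE female pools the single arrays of ATP5S were 0.36, 0.95 and 0.71 with treated RNA in Cy5 and -0.18, -0.22 and -0.48 with control RNA in Cy5 after the turn. In IS21SE female pools they were 0.62, 0.49 and 0.30 and, after the turn, -0.31, -0.32 and -0.12. ATP5SL had the highest mean of complex V over the groups, 0.098, and the widest disagreement between probes, from -0.24 to 0.67 over 5 probes in IS21SE male pools. Over all members with several probes, the probes of a gene lay on both sides of 0 in 27 of 68 cases, a case being a gene in a group.

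Agreement of all replicates in sign was about as frequent among the members as among all genes. All 3 replicates were negative for 5 and positive for 7 of 44 members in IS21FE female pools (11.6% and 23.4% of all genes). The counts were 9 and 3 of 48 in IS21FE male (12.8% and 9.44%), 3 and 10 in IS21SE female (9.69% and 15.8%) and 4 and 10 in IS21SE male pools (18.3% and 19.2%). The replicates of a group also shifted as a whole. In IS21SE male pools the member median was -0.088 in replicate 1, with 32 of 48 members negative, and 0.085 and 0.10 in replicates 2 and 3. In IS21FE female pools it was -0.072 in replicate 1 and 0.056 and 0.064 in the others. The SD between replicates of the member median was 0.076, 0.033, 0.034 and 0.11 in the 4 groups, and each group median was smaller than this spread.

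The comparisons that join groups called no member either. With limma, 0 of 48 members and 0.0% of all genes had an adjusted p under 0.05 for IS21FE over both sexes, IS21SE over both sexes, male minus female under each strategy, and IS21SE minus IS21FE. At an unadjusted p under 0.05 the counts were 1 (8.32% of all genes), 1 (8.31%), 0 under IS21FE (6.27%), 2 under IS21SE (8.04%) and 1 (5.61%). SDHB led for IS21FE over both sexes with a mean of 0.17 (limma adjusted p = 0.519), ahead of NDUFS5 at -0.11 and COX6A1 at -0.14. NDUFB8 led for IS21SE over both sexes at 0.15 (adjusted p = 0.571), ahead of NDUFV1 at 0.19 and NDUFC2 at 0.12. Male minus female under IS21FE was led by SDHB at -0.29, ATP5A1 at -0.33 and ATP5E at 0.24. Under IS21SE it was led by NDUFB8 at 0.41 (limma adjusted p = 0.50), NDUFS5 at 0.25 and COX6A1 at 0.22. Contrasts between the sexes compare arrays of unlike scale. All replicates entered these fits as independent, although female and male pools share sows. The p-values of the comparisons that join groups therefore take no account of the shared sows.

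Members whose replicates all lay on one side of 0 in one group and on the other side in another were few. Between the sexes there were 0 such members under IS21FE (3.03% of all genes) and 2 under IS21SE (5.05%), NDUFA4 and NDUFC1. NDUFA4 had log2 ratios of -0.045, -0.24 and -0.0046 in IS21SE female and of 0.20, 0.067 and 0.095 in IS21SE male pools. Its single arrays in IS21SE female pools were all positive with treated RNA in Cy5, at 0.24, 0.012 and 0.46, and all negative with control RNA in Cy5 after the turn, at -0.33, -0.49 and -0.47. With no array turned, the NDUFA4 mean was 0.33 in IS21SE female and 0.057 in IS21SE male pools, so the direction between the sexes was the opposite. NDUFC1, a small membrane arm subunit of complex I, had 0.046, 0.078 and 0.030 in IS21SE female and -0.22, -0.019 and -0.042 in IS21SE male pools. Between the strategies there was 1 such member in female pools (1.3%), ATP5G3, and 2 in male pools (3.45%), NDUFB8 and NDUFS5. ATP5G3 had -0.16, -0.0019 and -0.0094 in IS21FE female and 0.11, 0.062 and 0.030 in IS21SE female pools, so several of these values were close to 0.

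The members behaved otherwise when the columns were read as deposited, with no array turned. That reading gives treated over control only if the female columns, or all of them, had already been turned before deposit, which is not given in the sources used here. Read so, limma called 15 of 48 members in IS21FE female pools at an adjusted p under 0.05 (5.89% of all genes), of which 14 were positive (3.74% of all genes). It called 2 in IS21SE female pools (3.81%), 0 in IS21FE male pools (0.0%) and 0 in IS21SE male pools (0.00987%). At an unadjusted p under 0.05 the counts were 27 and 17 in IS21FE and IS21SE female pools (21.8% and 21.9% of all genes) and 6 and 5 in the male pools (15.3% and 12.3%). The member medians were 0.17, 0.10, 0.012 and -0.034 in IS21FE female, IS21SE female, IS21FE male and IS21SE male pools, and those of all genes were 0.014, -0.027, -0.050 and -0.052.

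The members called that way in IS21FE female pools came from complexes I, III, IV and V and not from complex II. The largest mean was that of NDUFB1, an accessory subunit of the membrane arm of complex I. NDUFB1 was deposited at 0.28, 0.84 and 0.42 with treated RNA in Cy5 and at 0.91, 0.32 and 0.76 with control RNA in Cy5 in IS21FE female pools. Its mean was 0.59 (limma adjusted p = 0.00684), and it was 0.38 in IS21SE female pools (adjusted p = 0.0277). In male pools the deposited mean of NDUFB1 was 0.028 for IS21FE and -0.14 for IS21SE.

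NDUFA5 of the matrix arm of complex I followed with 0.55, then UQCRB with 0.49, ATP5S with 0.48 and ATP5L, the g subunit of ATP synthase, with 0.42. COX7C (0.39), COX7A2 (0.38), NDUFB9 (0.36), NDUFB6 (0.34), NDUFB3 (0.32), ATP5I (0.31), NDUFA2 (0.31), NDUFA4 (0.31) and NDUFA12 (0.29) were the other positive calls. ATP5A1 was the negative one at -0.39, with all 6 arrays of the group between -0.63 and -0.21. The second call in IS21SE female pools was NDUFA4 at 0.33. Of the 15 genes, 13 had a positive deposited mean in IS21SE female pools. SDHB and SDHD had deposited means of -0.22 and -0.21 in IS21FE female pools, the opposite sign to that after the turn.

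The same pattern shows in single arrays. The deposited member median was above 0 on 12 of 12 female arrays, from 0.076 to 0.22 with treated RNA in Cy5 and from 0.052 to 0.26 with control RNA in Cy5. The median of all genes on these arrays stayed between -0.037 and 0.036. On male arrays the member median ran from -0.14 to 0.12 with treated RNA in Cy5, above 0 on 4 of 6, and from -0.11 to 0.068 with control RNA in Cy5, above 0 on 3 of 6. In the female pools the member median thus kept its sign when the dyes were exchanged, and after the turn the orientations had opposite signs. A part of the dye that does not depend on the sample and columns already turned before deposit cannot be told apart from these files.

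**Figure D4:**
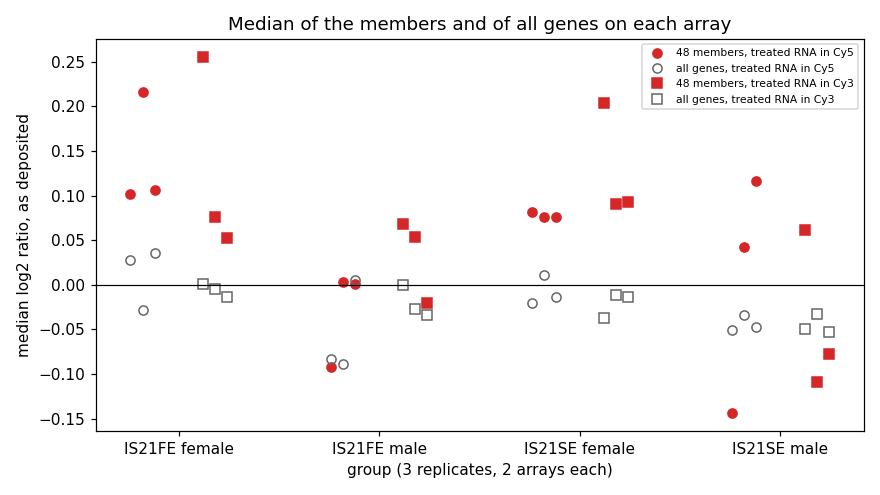
Median deposited log2 ratio of the 48 members (filled) and of all genes (open) on each of the 24 arrays, by group and by the dye of the treated RNA (circles Cy5, squares Cy3). Filled symbols lie above 0 on all 12 female arrays, from 0.052 to 0.26, and on both sides of 0 on male arrays.

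Further genes of the pathway gave no call either. Each of the lists below had 0 genes with a limma adjusted p under 0.05 in the 4 groups, where 0.0% of all genes were called; counts at an unadjusted p under 0.05 are given where they were above 0. NDUFV2 and COX5B are subunits that the platform spells in another way. They had group means from 0.036 to 0.14 and from -0.11 to 0.077. COX5B was negative in all 6 female replicates as means of both dye orientations. On single female arrays it was always negative with control RNA in Cy5 after the turn, from -0.34 to -0.050. With treated RNA in Cy5 it lay on both sides of 0, from -0.14 to 0.042. The acyl carrier subunit NDUFAB1 and the ATP synthase inhibitor ATPIF1 stayed between -0.054 and 0.16. The one subunit from mitochondrial DNA on the array, ND1 of complex I, had means of -0.14, -0.14, -0.19 and 0.65. Its IS21SE male replicates were 1.35, 0.53 and 0.061, with an unadjusted limma p of 0.0273 that became 0.368.

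Of 11 genes for electron carriers, which include the enzymes of coenzyme Q synthesis, 8 had a positive mean in IS21FE female pools, with a median of 0.19 and 3 genes at an unadjusted limma p under 0.05. Those were COQ5 at 0.39 (adjusted p = 0.397), COQ7 at 0.26 and COQ2 at 0.21, and all 3 replicates of each were positive. Of all genes, 44.2% had a negative mean and 8.51% were at that p in IS21FE female pools. The medians of this list in IS21FE male, IS21SE female and IS21SE male pools were 0.0079, 0.051 and -0.013. Assembly factors had medians of 0.077, -0.075, 0.041 and 0.081 over 14 or 15 genes. At that p stood 1 of them in IS21FE female (8.51% of all genes) and 2 in IS21SE male pools (11.8%).

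Genes of the citric acid cycle and of pyruvate dehydrogenase had 8 of 11 positive means in IS21FE female pools (median 0.094) and 9 of 10 negative means in IS21FE male pools (median -0.15). Of all genes, 44.2% and 53.0% were negative in these groups. In IS21SE female pools 4 were positive and 6 negative (median -0.020), and in IS21SE male pools 5 and 6 (median -0.013). DLAT, the acetyltransferase of pyruvate dehydrogenase, led in IS21FE female pools at 0.36 (limma adjusted p = 0.503). It was the single gene of the list at an unadjusted limma p under 0.05 there (8.51% of all genes). Regulators of mitochondrial biogenesis were negative for 7 of 8 genes in IS21FE male pools (median -0.15) and for 8 of 9 in IS21SE male pools (median -0.12), where 53.0% and 51.2% of all genes were negative. In female pools 6 of 8 were positive for IS21FE (median 0.079) and 5 of 9 for IS21SE (median 0.0069). TFB1M, an enzyme that modifies mitochondrial ribosomal RNA, had the smallest p in IS21FE male pools at -0.25 (adjusted p = 0.657), and GABPB1, a subunit of a factor that drives respiratory genes, in IS21SE male pools at -0.45 (adjusted p = 0.397). Each was the single gene of this list at an unadjusted limma p under 0.05 in its group (6.74% and 11.8% of all genes).

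Markers of tissues that the embryos hold are set beside the members. Skeletal muscle markers were negative for 9 of 12 genes in IS21FE female (median -0.15) and for 11 of 12 in IS21FE male pools (median -0.21), with medians of -0.041 and 0.027 in IS21SE female and male pools. At an unadjusted limma p under 0.05 stood 3, 3, 0 and 2 of these genes in IS21FE female, IS21FE male, IS21SE female and IS21SE male pools. Of all genes, 8.51%, 6.74%, 5.35% and 11.8% were at that p in these groups, and 44.2%, 53.0%, 45.7% and 51.2% had a negative mean. Heart muscle markers were positive for 10 of 12 genes in IS21SE male pools (median 0.34, range -1.39 to 0.98), and their medians were -0.053, -0.087 and -0.12 in the other groups. In the same order 0, 1, 1 and 7 of them were at that p. Liver markers were positive for 14 of 15 genes in IS21SE male pools (median 0.31) and had medians of 0.098, 0.013 and 0.11 in the others, with 4 genes at that p in IS21SE male and 0 in the other pools. Erythroid markers had medians of -0.15, 0.13, 0.084 and 0.14, and those of the nervous system stayed between -0.049 and 0.015, with at most 1 gene of either list at that p in a group. The part of these tissues in the members' ratios was not tested.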

How the data were processed

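RNA of day 30 pig embryo pools was hybridised to 2-colour arrays, 24 in all. The deposited table holds the authors' log ratio of both channels per probe, taken here as log2 because its values run from -9.34 to 9.85. The authors' background correction, normalization, log base and direction of the ratio were not given in the sources used here. Blank values made up 16.6%. The columns were read in dye order, and arrays with control RNA in Cy5 were multiplied by -1. Platform symbols named 18109 probes, and 25640 had no symbol. A replicate was the mean of its 2 arrays where both were measured, and a gene the mean of its probes.

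Groups came from the labels. limma 3.58.1 (R 4.3.3) was fitted over all 4 groups and all genes measured in at least 2 replicates of a group, with Benjamini-Hochberg adjustment and a threshold of 0.05, and was tested on simulated data. Contrasts were each group against 0, each strategy over both sexes, male minus female, and IS21SE minus IS21FE. Named were members past the threshold, those of smallest p, all of complex II, the extremes of each complex, those of one sign in all groups, the ATP5G genes, those with discordant probes and the leading genes of each list. Members called with no array turned, and others named for a split between replicates or groups, were chosen after their values were seen. The members and lists were chosen with earlier results of these data known. Alternatives covered the turn, the dye orientations, single arrays with a dye term, centring and scaling, array weights, probe filters, medians of probes, groups fitted alone, a replicate block, each replicate left out and 3 alike arrays left out. Keeping replicates with 1 measured array was added after seeing the data. No sequences or coordinates were used.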

Additional observations from a re-analysis of the deposited data

Results flagged for a closer look

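In 5 pairs of group and member, every replicate of one group lay on the opposite side of 0 from every replicate of the other. Values are differences of mean log2 ratios, the first group minus the second. In the IS21SE female against the IS21SE male pools, NDUFA4 differed by -0.22 (means -0.097 and 0.12) and NDUFC1 by 0.15 (0.051 and -0.094), and 5.05% of all genes showed such a split. With no array turned, NDUFA4 had the opposite direction, 0.33 in IS21SE female and 0.057 in IS21SE male pools. The test of male minus female gave them adjusted limma p of 0.756 and 0.806. ATP5G3 differed by -0.12 between IS21FE female and IS21SE female pools (-0.057 and 0.066), as 1.3% of all genes did. Between IS21FE male and IS21SE male pools NDUFB8 differed by -0.47 (-0.12 and 0.35) and NDUFS5 by -0.31 (-0.11 and 0.20), a split seen in 3.45% of all genes. With no array turned the means of these groups shared a sign, at -0.066 and -0.0052 for NDUFB8 and at 0.0955 and 0.11 for NDUFS5. The difference between strategies within a sex was not tested for ATP5G3, NDUFB8 and NDUFS5. Over both sexes the adjusted limma p was 0.878 for NDUFB8 and for NDUFS5.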

How the results depend on the processing

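Of the alternatives, the turn of the arrays changed most, and the cause was not tested. With no array turned, members called numbered 15 in IS21FE female (5.89% of all genes) and 2 in IS21SE female pools (3.81%). They numbered 12 for IS21FE over both sexes and 1 for IS21SE over both sexes. The share of all genes called was not counted for these joined comparisons, so their counts cannot be set against a background. The member medians became 0.17 (IS21FE female), 0.012 (IS21FE male), 0.10 (IS21SE female), 0.085 (IS21FE, both sexes), -0.12 (IS21SE male minus female) and -0.062 (IS21SE minus IS21FE). ATP5S in IS21FE female pools became 0.48 (limma adjusted p = 0.0213). Signs turned in IS21FE female for ATP5E (0.19), SDHB (-0.22) and SDHD (-0.21), in IS21FE male for ATP5A1 (0.016), in IS21SE female for COX6A1 (0.16), SDHB (-0.058) and SDHD (-0.19), and in IS21SE male for NDUFB8 (-0.0052) and NDUFC2 (-0.31). They turned over both sexes for COX6A1 (0.11), NDUFS5 (0.17) and SDHB (-0.17) under IS21FE and NDUFC2 (-0.23, limma adjusted p = 0.0437) under IS21SE. In male minus female they turned for ATP5A1 (0.41), ATP5E (-0.26) and SDHB (0.093) under IS21FE and NDUFB8 (-0.12) and NDUFS5 (-0.13) under IS21SE, and between strategies for SDHB (0.10).

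With treated RNA in Cy5 alone, medians were 0.13 (IS21FE female), 0.061 (IS21SE female), 0.070 (IS21FE, both sexes) and -0.22 (IS21FE male minus female). With control RNA in Cy5 alone they were -0.11, -0.14, -0.098 and 0.054, and 0.17 for IS21SE male minus female. Treated RNA in Cy5 alone turned ATP5E (0.0020) in IS21FE female, COX6A1 (0.041) and SDHD (-0.0090) in IS21SE female, NDUFC2 in IS21SE male (-0.098) and over both sexes (-0.11), NDUFS5 (0.055) and SDHB (-0.0020) for IS21FE over both sexes, and ATP5A1 (0.082) and ATP5E (-0.019) in IS21FE male minus female. Control RNA in Cy5 alone turned ATP5S (-0.29) in IS21FE female and NDUFV1 (-0.034) in IS21SE female.

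Leaving out 1 replicate gave medians from -0.034 to 0.058 in IS21FE female, from -0.058 to -0.039 in IS21FE male, from -0.016 to 0.010 in IS21SE female, from -0.025 to 0.11 in IS21SE male and from -0.025 to 0.13 for IS21SE male minus female. Under every alternative but the turn, 0 members were called. Same-numbered pools correlated from -0.074 to 0.31, over 0.1 in 3 of 18 pairs, and the numbers were not taken to pair pools. Most of these pairs set IS21FE against IS21SE pools, which have different treated sows, so they could not show a pairing by treated sow. The highest values, 0.31 and 0.24, were between IS21SE female and IS21FE male pools of replicates 1 and 2. Whether same-numbered pools share a control sow was not tested. Between same-numbered female and male pools of a strategy the correlation ran from -0.039 to 0.19. The labels do not say whether such pools share a sow, and the check cannot decide it. With the replicate block 0 members were called, and the medians were 0.032, -0.025, -0.025 and 0.048 in the 4 groups. Over all results and alternatives, 610 values of named members kept their sign and their side of the threshold, and 165 counts were unchanged. A further 151 medians moved by less than their SD between replicates, though some crossed 0. Ratios alone set no limit of signal over background.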
